A study of Mus musculus with 24 samples.

Results

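The cell cycle and DNA replication genes examined here are 47 genes chosen by name, with earlier results of these data known. They run from the helicase and clamp that copy DNA to the kinases and motors that divide the cell. All 47 were found by symbol among the 55417 genes of the count table. They were placed in 3 classes by the known role of their product, 14 in replication, 30 in mitosis and 3 as transcription factors of the cycle. The series measured messenger RNA by bulk RNA sequencing in dissected entorhinal cortex, the cortical gateway to the hippocampus, of mice aged 2 to 4 months. Each mouse carried the Nop-tTA Line S driver and the TRE-GlyCl-YFP Line 9531 responder, with genotype tg/tg in every group, the controls included. In this system the neuropsin promoter drives the tTA activator in a set of neurons richest in the superficial entorhinal cortex, and tTA in turn drives GlyCl, a chloride channel used to silence neurons, with a yellow fluorescent protein. The 4 groups of 6 libraries were Vehicle, with 4 females and 2 males, and 1, 2 and 3 days after activation of the channel, with 3 females and 3 males at each day (Day 1, Day 2 and Day 3). The activating agent, its dose and the day on which Vehicle tissue was taken are not in the labels, and no group without the transgenes was analysed here.

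A dividing cell first copies its genome and then separates the copies. For replication, the Mcm2 to Mcm7 helicase is loaded at origins, Pcna holds the polymerases on DNA, and ribonucleotide reductase, thymidine kinase and thymidylate synthase supply deoxynucleotides, under the control of E2F factors. For mitosis, Cdk1 with its cyclins, Plk1 and the Aurora kinases build the spindle, condensins and Top2a shape the chromosomes, and the anaphase-promoting complex triggers their separation, with many of these genes under the control of Foxm1 and of the DREAM and MYB complexes. Most neurons of the adult cortex have left the cycle, so that the cells known to divide there are mainly oligodendrocyte precursors and, after injury, microglia and some astrocytes.

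Libraries held 16621659 to 23667449 counted reads. EYFP, the transgene's marker, was read in every library, at 50.4 to 77.4 counts per 1000000 reads (CPM) at Day 3 and 93.7 to 137 CPM in Vehicle. Ttr, a transthyretin transcript made by the choroid plexus, stood at 562 CPM or more in 8 libraries (Vehicle replicate 5, Day 1 replicates 2 and 4, Day 2 replicates 4 and 6, and Day 3 replicates 2, 3 and 6) and at no more than 25.9 CPM in the others. Slc17a7, Camk2a and the other excitatory neuron markers were abundant in every group, with summed levels of 7474 to 7971 CPM at Day 3 and 7568 to 8065 CPM in Vehicle.

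The genes differ in the short DNA elements known to time them. The promoter windows shown are those of 5 of the 7 members called higher at Day 3, as described below. The CHR element, TTTGAA, is bound by the DREAM and MYB complexes at genes of late cycle phases, and the E2F element, searched as the letters TTCCCGC as well as TTCGCGC, along with TTGGCGC and also with TTGCCGC, by E2F factors at genes of replication. RefSeq promoter windows on the GRCm38.p6 build, from 250 bases before to 50 bases after the start site, were at hand for 39 of the 47 members. Of the members called higher but not shown, Kif20a had no window, and that of Tk1 held neither the CHR nor the E2F letters. The counts were made on another build, mm39, so these coordinates serve only to place the windows. Each window below is written 5′ to 3′ on the strand of its gene, with CHR elements of either orientation in capitals in Mki67, Top2a and Bub1b.
Mki67 (chr7:135716330-135716629, minus strand): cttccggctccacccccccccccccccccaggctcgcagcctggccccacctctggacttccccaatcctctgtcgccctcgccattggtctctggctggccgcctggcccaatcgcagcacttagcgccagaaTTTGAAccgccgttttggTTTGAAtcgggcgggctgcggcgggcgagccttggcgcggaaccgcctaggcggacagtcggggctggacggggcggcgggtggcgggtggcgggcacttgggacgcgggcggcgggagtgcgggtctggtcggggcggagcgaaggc
Top2a (chr11:99024140-99024439, minus strand): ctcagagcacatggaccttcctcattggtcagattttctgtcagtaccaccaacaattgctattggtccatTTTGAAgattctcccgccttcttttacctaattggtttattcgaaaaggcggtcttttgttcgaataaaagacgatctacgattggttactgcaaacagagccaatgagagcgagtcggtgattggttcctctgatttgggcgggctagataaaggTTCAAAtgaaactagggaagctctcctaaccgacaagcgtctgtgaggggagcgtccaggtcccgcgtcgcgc
Bub1b (chr2:118597961-118598260, plus strand): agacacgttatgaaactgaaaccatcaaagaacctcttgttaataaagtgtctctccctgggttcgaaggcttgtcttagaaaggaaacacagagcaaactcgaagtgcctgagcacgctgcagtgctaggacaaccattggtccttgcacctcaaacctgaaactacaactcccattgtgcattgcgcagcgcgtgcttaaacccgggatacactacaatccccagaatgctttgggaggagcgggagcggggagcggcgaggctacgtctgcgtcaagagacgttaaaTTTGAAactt
In the windows of Mcm3 and of both start sites of Uhrf1, capitals mark E2F elements of either orientation.
Mcm3 (chr1:20820263-20820562, minus strand): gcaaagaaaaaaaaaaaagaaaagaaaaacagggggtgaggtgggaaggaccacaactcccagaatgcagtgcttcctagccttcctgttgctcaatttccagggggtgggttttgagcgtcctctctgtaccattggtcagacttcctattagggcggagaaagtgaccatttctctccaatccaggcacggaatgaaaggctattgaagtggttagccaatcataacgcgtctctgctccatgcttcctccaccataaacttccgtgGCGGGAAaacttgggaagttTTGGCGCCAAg
Uhrf1 (chr17:56303087-56303386, plus strand): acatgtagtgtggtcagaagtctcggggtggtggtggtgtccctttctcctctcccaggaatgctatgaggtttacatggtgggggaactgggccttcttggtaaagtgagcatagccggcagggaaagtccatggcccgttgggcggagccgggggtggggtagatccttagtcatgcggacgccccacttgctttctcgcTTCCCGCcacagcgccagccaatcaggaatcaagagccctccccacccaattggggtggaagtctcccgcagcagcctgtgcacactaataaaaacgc
Uhrf1 (chr17:56304063-56304362, plus strand): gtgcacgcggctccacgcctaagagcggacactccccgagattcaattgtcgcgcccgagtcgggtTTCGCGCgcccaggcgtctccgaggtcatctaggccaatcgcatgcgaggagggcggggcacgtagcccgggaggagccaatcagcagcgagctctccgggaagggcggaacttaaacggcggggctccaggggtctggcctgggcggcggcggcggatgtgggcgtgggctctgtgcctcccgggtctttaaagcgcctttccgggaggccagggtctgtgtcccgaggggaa
The pair of CHR elements of Mki67 began 116 and 98 bases before the start site, and those of Top2a 179 and 23 bases before it, whereas that of Bub1b began 40 bases after it. In Mcm3 both E2F runs lay after the start, and the second, a palindrome, held overlapping matches on both strands. With both strands searched, the CHR letters were present in 19 of 25 mitosis members with a window (76%), in 1 of 12 replication members (8.33%, Mcm2) and in 20.2% of all 27025 genes with a window. The E2F letters were present in 6 of 25 mitosis members (24%), 8 of 12 replication members (66.7%) and 10.9% of all these genes. CCAAT, the site of the NF-Y factor, was present in 22 of 25 mitosis members (88%), 9 of 12 replication members (75%) and 41.1% of all these genes. A match describes the letters of a window and does not show that a factor is bound there.

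At Day 3, 7 members were called higher than in Vehicle and none lower: Mcm3, Tk1 and Uhrf1 of the replication class, and Mki67, Top2a, Bub1b and Kif20a of the mitosis class. A gene was called at a Benjamini-Hochberg adjusted p under 0.05 in edgeR's two-sided quasi-likelihood test, and 0.602% of the 16767 genes tested were called higher in this comparison. The filter on low counts kept 43 members, since Cdk1, Aurkb, Bub1 and Ncapg fell below it. E2f8, Bub1b, Melk and Ccnb1 reached the filter's level in 5, 4, 3 and 1 libraries outside Day 3, so that they were tested because of their level at Day 3. Their log2 fold changes over Vehicle were 0.58, 1.64, 0.57 and 1.38. Their part in the calls, signs, counts by unadjusted p and medians given here and below is no support. The fitted log2 fold change lay above 0 for 43 of 43 members tested, against 49% of all genes, and 28 members had an unadjusted p under 0.05 in the higher direction, as did 3.58% of all genes. None had one in the lower direction. Since the members were chosen with earlier results of these data known, the contrasts with all genes here and below describe the members and are no independent support. The median log2 fold change was 0.39 over the 14 replication members and 0.56 over the 26 mitosis members tested, against -0.00 over all genes, whose 5th and 95th percentiles were -0.24 and 0.31. The difference between the class medians was not tested, and in males alone their order was turned, with 0.49 for replication and 0.43 for mitosis. The number of members called was 12 without the filter (0.491% of all genes were higher), 4 without Day 3 replicate 1 (0.414%), 4 without Vehicle replicate 3 (0.455%), 3 in females alone (0.2%) and 0 in males alone (0.0584%). In bulk tissue, a change in the number of cells of a type and a change in RNA per cell cannot be told apart.

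**Figure D1:**
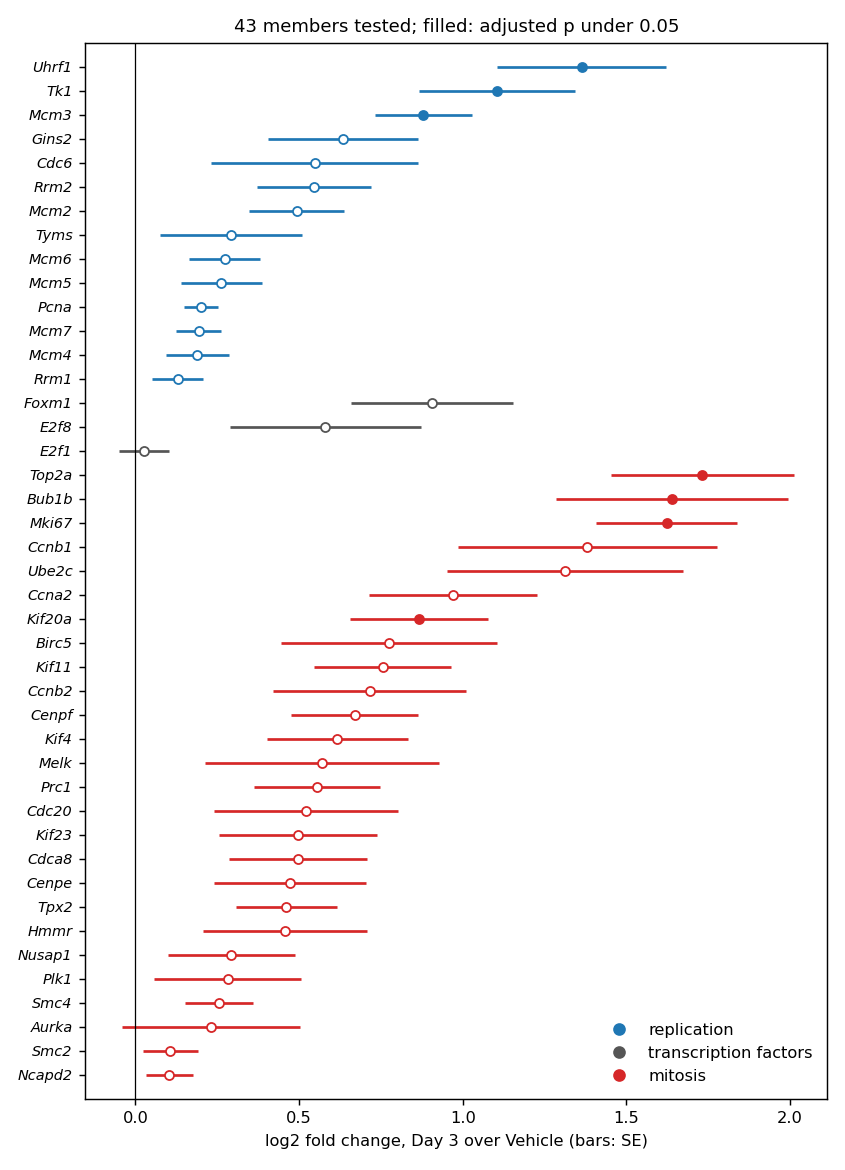
Log2 fold change at Day 3 over Vehicle for the 43 members tested, with the standard error as the bar and members ordered within replication (blue), transcription factors (grey) and mitosis (red). Every point lies above 0, the 7 filled points mark adjusted p under 0.05, and the largest values belong to Top2a, Bub1b and Mki67.

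Mki67, the antigen used to count cycling cells and a coat protein of mitotic chromosomes, had a lowest, median and highest level of 4.17, 4.82 and 6.91 CPM in Day 3 libraries, against 1.20, 1.69 and 2.06 CPM in Vehicle libraries. The groups did not overlap, and all Day 3 libraries also lay above all Day 1 and Day 2 libraries. The log2 fold change over Vehicle was 1.62 ± 0.21 (SE, n = 6 each) with an edgeR adjusted p of 2.42e-05. These levels rested on few reads, 603 summed over the Day 3 libraries and 195 over the Vehicle libraries.

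Of the replicative helicase, Mcm3 was the subunit called higher, with a lowest, median and highest level of 2.83, 4.56 and 6.32 CPM at Day 3, against 2.04, 2.53 and 2.82 CPM in Vehicle. The groups did not overlap, although Day 3 replicate 3, at 2.83 CPM, stood just above the highest Vehicle library. Its log2 fold change was 0.88 ± 0.15 (SE), with an edgeR adjusted p of 0.000884. The other 5 subunits, which join Mcm3 in a ring, had smaller differences, also above 0, that were not called. Whether the subunits differ from each other was not tested. Mcm2 stood at 4.10, 6.52 and 8.90 CPM at Day 3, against 4.16, 4.51 and 5.29 CPM in Vehicle, with 5 of 6 Day 3 libraries above all Vehicle libraries and 1 below them all (log2 fold change 0.49 ± 0.15, adjusted p 0.195). Mcm7 stood at 11.4, 13.3 and 14.3 CPM at Day 3, against 10.3, 11.5 and 11.8 CPM in Vehicle (0.19 ± 0.07, adjusted p 0.476). These groups overlapped through the lowest Day 3 library. Mcm6 stood at 6.22, 6.52 and 7.10 CPM at Day 3, against 3.82, 5.63 and 6.55 CPM in Vehicle (0.27 ± 0.11, adjusted p 0.668). Mcm5 stood at 4.75, 5.97 and 6.16 CPM at Day 3, against 3.88, 4.49 and 5.64 CPM in Vehicle (0.26 ± 0.12, adjusted p 0.844). Mcm4 stood at 9.57, 10.7 and 11.4 CPM at Day 3, against 7.62, 9.39 and 10.6 CPM in Vehicle (0.19 ± 0.09, adjusted p 0.910). The Day 3 and Vehicle ranges of Mcm4, Mcm5 and Mcm6 overlapped, and Mcm4 had the smallest fold of the 6 subunits. Cdc6, which loads the helicase, and Gins2, a part of the activated helicase, were not called, with log2 fold changes of 0.55 and 0.64.

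Pcna, the sliding clamp, stood at 32.02, 37.0 and 39.3 CPM at Day 3, against 30.7, 31.2 and 33.6 CPM in Vehicle. In all, 5 of 6 Day 3 libraries lay above every Vehicle library, yet the log2 fold change was 0.20 ± 0.05 (SE) and the edgeR adjusted p 0.0794, so that Pcna was not called. The alternative tool DESeq2 did call it. Uhrf1, which binds hemimethylated DNA behind the fork and brings in the maintenance methyltransferase, rose, at 1.45, 2.44 and 2.99 CPM at Day 3, against 0.488, 0.897 and 1.47 CPM in Vehicle. Its groups overlapped through Day 3 replicate 2, the lowest of that group at 1.45 CPM (log2 fold change 1.36 ± 0.26, adjusted p 0.00381). The call of Uhrf1 was lost in either sex alone. Among the enzymes of deoxynucleotide supply, Tk1, the cytosolic thymidine kinase, rose, at 1.50, 1.94 and 3.09 CPM at Day 3, against 0.602, 0.837 and 1.46 CPM in Vehicle. Its groups did not overlap (log2 fold change 1.10 ± 0.24, adjusted p 0.0157), but the call was lost without Day 3 replicate 1 and without Vehicle replicate 1, 3 or 4. It was also lost in either sex alone and with the first 2 digits of the library title as a factor (called here the animal number factor). Rrm1, the large subunit of ribonucleotide reductase, had the smallest fold of the replication class, at 16.3, 19.4 and 22.1 CPM at Day 3, against 15.3, 17.6 and 18.6 CPM in Vehicle (0.13 ± 0.08, adjusted p 0.994). Rrm2, the small subunit made mainly in S phase, and Tyms, thymidylate synthase, were not called either, with log2 fold changes of 0.55 and 0.29.

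**Figure D2:**
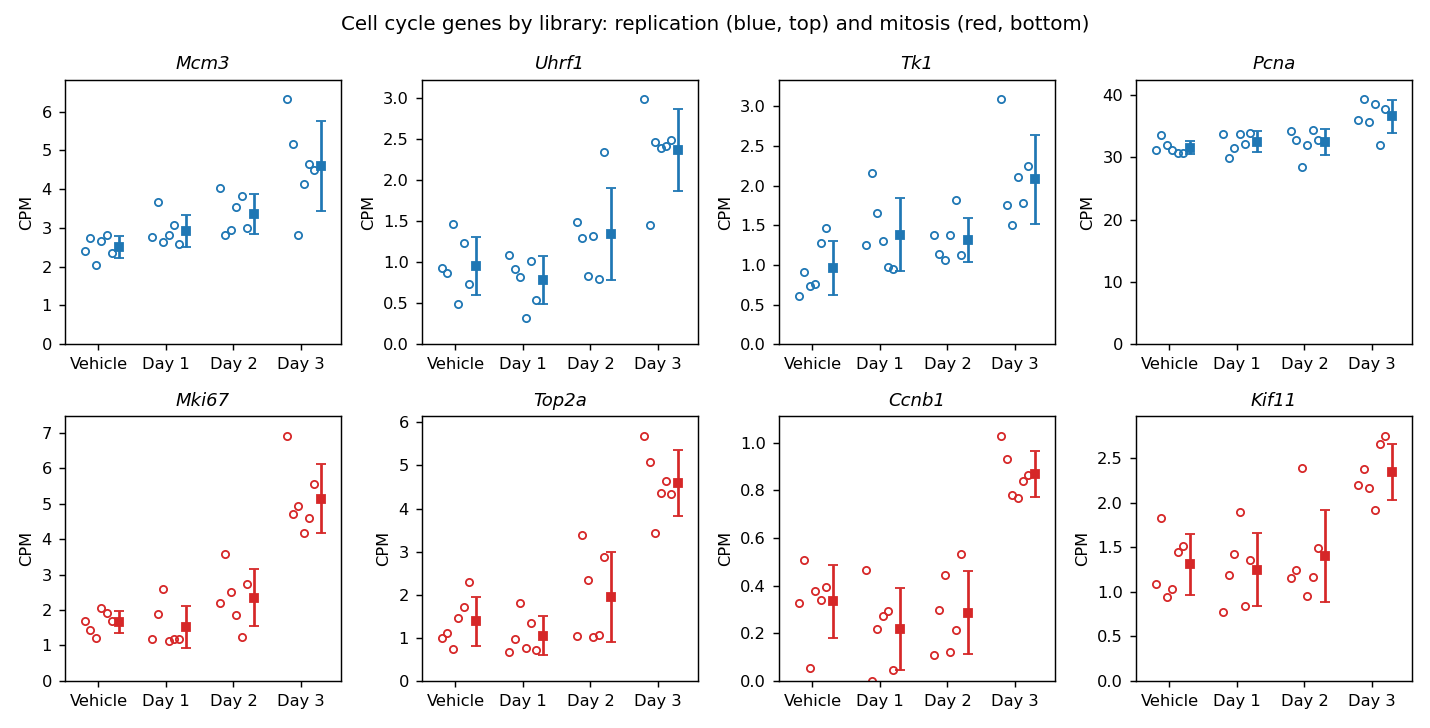
Level in CPM of 4 replication members (blue) and 4 mitosis members (red) in each library of Vehicle, Day 1, Day 2 and Day 3, as circles, with the group mean and SD as squares and bars, each axis starting at 0. Mki67, Top2a and Ccnb1 at Day 3 lie above every other library, while Pcna moves little relative to its level.

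Of the transcription factors, Foxm1, an activator of mitotic genes, had the largest difference, at 1.92, 2.35 and 3.18 CPM at Day 3, against 0.683, 1.19 and 2.08 CPM in Vehicle, and was not called (log2 fold change 0.91 ± 0.25, adjusted p 0.122). E2f1, an activator of replication genes, stood at 16.4, 18.1 and 18.6 CPM at Day 3, against 14.7, 17.4 and 19.6 CPM in Vehicle (0.03 ± 0.08, adjusted p 0.999). All Day 3 values of E2f1 lay within the Vehicle range. E2f8, a repressor of E2F genes, had a log2 fold change of 0.58 and was not called.

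Of Cdk1 and its cyclins, Ccnb1, cyclin B1, stood at 0.768, 0.852 and 1.03 CPM at Day 3, against 0.0524, 0.361 and 0.508 CPM in Vehicle. The groups did not overlap, but the edgeR adjusted p was 0.163 (log2 fold change 1.38 ± 0.40). Ccna2, cyclin A2, had a log2 fold change of 0.97 and Ccnb2, cyclin B2, of 0.72, and neither was called. Cdk1, the kinase they activate, was below the filter, with levels of 0.296, 0.870 and 1.13 CPM at Day 3, against 0, 0.220 and 0.427 CPM in Vehicle. Its reads summed to 91 over the Day 3 libraries and 27 over the Vehicle libraries, and 4 of 6 Day 3 libraries lay above all Vehicle libraries. In the edgeR fit without the filter, Cdk1 had a log2 fold change of 1.76 ± 0.43 and an adjusted p of 0.0112.

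Plk1 and Aurka, kinases of the centrosome and spindle, and Melk, a kinase made late in the cycle, were not called and had log2 fold changes of 0.23 (Aurka) to 0.57 (Melk). Aurkb, the kinase of the chromosomal passenger complex that corrects faulty attachments, was below the filter, at 0.345, 0.730 and 1.27 CPM at Day 3, against 0, 0.208 and 0.314 CPM in Vehicle. Its groups did not overlap, its reads summed to 93 at Day 3 and 22 in Vehicle, and its log2 fold change in the edgeR fit without the filter was 2.01 ± 0.44 (adjusted p 0.00139). Birc5 and Cdca8, survivin and borealin of the same complex, had log2 fold changes of 0.78 and 0.50 and were not called.

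Bub1b, the checkpoint protein BubR1 that holds back anaphase, rose, at 0.528, 1.03 and 1.62 CPM at Day 3, against 0.112, 0.341 and 0.547 CPM in Vehicle. The groups overlapped through Day 3 replicate 4, and the reads behind them summed to 121 at Day 3 and 40 in Vehicle (log2 fold change 1.64 ± 0.35, edgeR adjusted p 0.0160). The call was lost when either Day 3 replicate 1 or 2, or Vehicle replicate 3 or 6, was left out. It was also lost with the animal number factor, with only both groups in the fit, without the Ttr-rich libraries and in either sex alone. Cenpf, a large kinetochore protein, and Cenpe, a kinetochore motor, had log2 fold changes of 0.67 and 0.47 and were not called, and Bub1, a kinase of the same checkpoint, was below the filter (0.96 ± 0.48 without it, adjusted p 0.935).

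Of the factors that promote anaphase, Ube2c, the ubiquitin-conjugating enzyme of the anaphase-promoting complex, stood at 0.543, 0.931 and 1.63 CPM at Day 3, against 0.213, 0.271 and 0.965 CPM in Vehicle, and was not called in this comparison (log2 fold change 1.31 ± 0.36, edgeR adjusted p 0.123). Cdc20, the activator of that complex, had a log2 fold change of 0.52. Among 8 spindle motors and microtubule binders, Kif20a, a kinesin of cytokinesis, rose, at 0.782, 1.70 and 2.02 CPM at Day 3, against 0.640, 0.909 and 1.27 CPM in Vehicle. Its groups overlapped through Day 3 replicate 3 alone, and its adjusted p of 0.0491 lay at the threshold (log2 fold change 0.87 ± 0.21). That call held in 5 of 24 fits that each left out a library and in 3 of 12 other alternatives. Kif11, the motor that separates the spindle poles, stood at 1.92, 2.29 and 2.75 CPM at Day 3, against 0.943, 1.27 and 1.83 CPM in Vehicle, with no overlap and an adjusted p of 0.130 (0.76 ± 0.21). The remaining 6 of this role were Kif4, Kif23 and Prc1 of the central spindle and Tpx2, Hmmr and Nusap1, which bind spindle microtubules. They were not called and had log2 fold changes down to 0.29 (Nusap1).

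Top2a, the topoisomerase that untangles sister chromatids, had the largest fold of the members tested, at 3.43, 4.50 and 5.68 CPM at Day 3, against 0.733, 1.29 and 2.30 CPM in Vehicle. The groups did not overlap, and the log2 fold change was 1.73 ± 0.28 with an edgeR adjusted p of 0.000554. The subunits of condensin, which compacts chromosomes, had smaller values. Smc2, Smc4 and Ncapd2 had log2 fold changes of 0.11, 0.26 and 0.10 and were not called, and Ncapg, below the filter, had 0.07 ± 0.43 without it.

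Counted by library, 8 of the 47 members had every Day 3 library above every Vehicle library (Mki67, Mcm3, Tk1, Ccnb1, Aurkb, Kif11, Kif4 and Top2a), and none had the reverse. Over all genes tested, 0.692% had every Day 3 library above every Vehicle library. Of the 8 members, Aurkb was below the filter and so is not among the genes behind that share. Ccnb1 was tested because of its level at Day 3. The part of Aurkb and Ccnb1 in this count is no support. Kif4, which also rides on chromosome arms, belonged to the 8 with a log2 fold change of 0.62 that was not called.

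The members were also compared between the days and over the course of days, with Vehicle shared by the comparisons against it. At Day 1, no member was called higher, where 0.0119% of all genes were, and none was called lower. No member had an unadjusted p under 0.05 in either direction at Day 1, where 2.93% of all genes had one in the higher and 4.31% in the lower direction. At Day 1 the median log2 fold change was 0.02 for replication and 0.02 for mitosis, and values above 0 were fitted for 24 of 43 members, against 50.6% of all genes. At Day 2, no member was called either, where 0.0656% of all genes were called higher, and 3 members had an unadjusted p under 0.05 in the higher direction, against 2.74% of all genes. The class medians at Day 2 were 0.17 for replication and 0.17 for mitosis, with 36 of 43 members above 0, against 50.3% of all genes. The mitosis median at Day 2 was 0.04 with the animal number factor, 0.08 in males alone and 0.11 without the filter, whereas that of replication was 0.21, 0.11 and 0.17. By library, 2 members, Mcm3 and Mcm7, had every Day 2 library above every Vehicle library, against 0.262% of all genes. By DESeq2 and by limma voom no member was called at Day 1 or Day 2 either. Mcm3 stood at 2.83, 3.26 and 4.02 CPM at Day 2, against 2.04, 2.53 and 2.82 CPM in Vehicle, and its adjusted p was 0.759.

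**Figure D3:**
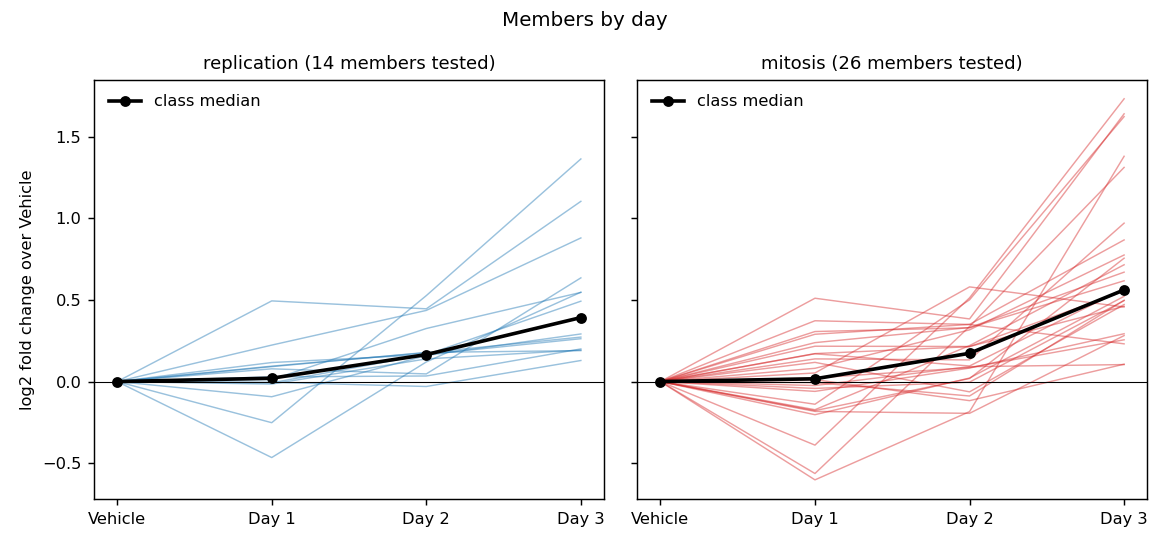
Log2 fold change over Vehicle at Day 1, Day 2 and Day 3 for each replication member (blue, left) and mitosis member (red, right) that was tested, with the class median in black and Vehicle set at 0. Both medians are 0.02 at Day 1 and 0.17 at Day 2, and they are 0.39 for replication and 0.56 for mitosis at Day 3, where the red lines also spread most.

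The days were set against each other directly. Between Day 3 and Day 2, Mki67 was the member called, at 4.17, 4.82 and 6.91 CPM at Day 3, against 1.23, 2.35 and 3.57 CPM at Day 2 (log2 fold change 1.12 ± 0.21, edgeR adjusted p 0.0116), where 0.119% of all genes were called higher. This call was lost without Day 3 replicate 1, the library with the highest Mki67, without the 8 Ttr-rich libraries, with the animal number factor and in either sex alone. Top2a stood at 3.43, 4.50 and 5.68 CPM at Day 3, against 1.02, 1.70 and 3.38 CPM at Day 2, with an adjusted p of 0.0622. The median log2 fold change of Day 3 over Day 2 was 0.19 for replication and 0.49 for mitosis. In this comparison 20 members had an unadjusted p under 0.05 in the higher direction, against 2.89% of all genes. Every Day 3 library lay above every Day 2 library for Mki67, Ccnb1, Kif23 and Top2a, which is 4 of 47 members, against 0.28% of all genes tested. Ccnb1 was tested because of its level at Day 3, so that its part in this count is no support.

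Between Day 3 and Day 1, 7 members were called higher, Mki67, Top2a, Uhrf1, Ube2c, Ccnb1, Mcm3 and Kif11, where 0.602% of all genes were. Top2a had the largest of these differences, at 3.43, 4.50 and 5.68 CPM at Day 3, against 0.676, 0.866 and 1.82 CPM at Day 1 (log2 fold change 2.12 ± 0.29, edgeR adjusted p 8.34e-05). Ccnb1 stood at 0.768, 0.852 and 1.03 CPM at Day 3, against 0, 0.246 and 0.468 CPM at Day 1 (1.98 ± 0.42, adjusted p 0.0171). It reached the filter's level in 1 library outside Day 3, so that it was tested because of its level at Day 3. Ube2c stood at 0.543, 0.931 and 1.63 CPM at Day 3, against 0.127, 0.244 and 0.452 CPM at Day 1 (1.87 ± 0.38, adjusted p 0.0128). For none of these 3 did the Day 3 and Day 1 libraries overlap. Mki67 had a log2 fold change over Day 1 of 1.76 (adjusted p 1.82e-05), Uhrf1 of 1.62 (0.00106), Kif11 of 0.93 (0.0253) and Mcm3 of 0.66 (0.0232). The calls of Ube2c, Ccnb1, Kif11 and Mcm3 were lost with the animal number factor and in either sex alone, and the first 3 of them also without the Ttr-rich libraries. That of Uhrf1 was lost in females alone and that of Top2a in males alone. The call of Ube2c was also lost without Day 1 replicate 5, and that of Ccnb1 without any of Day 1 replicate 6, Day 3 replicate 1 and Day 3 replicate 6. That of Kif11 was lost without Day 1 replicate 1, 5 or 6 or Day 3 replicate 1, 2 or 6, and that of Mcm3 without Day 1 replicate 1, 3, 5 or 6 or Day 3 replicate 1, 2, 5 or 6. Every Day 3 library lay above every Day 1 library for 8 of 47 members, Mki67, Top2a, Uhrf1, Ccnb1, Ube2c, Kif11, Rrm2 and Gins2, against 0.579% of all genes tested. The part of Ccnb1 in this count is no support either. Between Day 2 and Day 1 no member was called, where 0.0119% of all genes were called higher, and 6 members had an unadjusted p under 0.05 in the higher direction, against 2.43% of all genes.

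When the 3 days were tested jointly against Vehicle, 7 members were called, Mki67, Top2a, Uhrf1, Mcm3, Ccnb1, Ube2c and Bub1b, where 0.644% of all genes were. The adjusted p of the joint edgeR test was 6.80e-06 for Mki67 and 0.0398 for Bub1b. The calls of Bub1b and Ccnb1 here rest on genes tested because of their level at Day 3, as above. The difference between Day 3 and Vehicle was also compared between the sexes. No gene was called for that interaction, among members or over all genes, and 2 members had an unadjusted p under 0.05, Foxm1 with -1.10 ± 0.48 (male minus female, log2, unadjusted p 0.0289) and Plk1 with -0.98 ± 0.45 (unadjusted p 0.0386). Vehicle held 2 males, which limits the precision of that test.

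Levels can be compared between genes only per length of transcript, and for this CPM was divided by the length of the joined exons in kilobases (kb), from the GENCODE M21 annotation. Pcna had the highest mean level over all libraries, 13.9 CPM per kb, followed by E2f1 at 5.64, Ncapd2 at 2.83, Mcm4 at 2.81 and Mcm7 at 2.72 CPM per kb. Top2a stood at 0.249 and Mki67 at 0.266 CPM per kb. Of the 43 members tested, the 21 with the higher level per kb had a median log2 fold change at Day 3 over Vehicle of 0.27, and 2 of them were called. The 22 with the lower level had a median of 0.65, and 5 were called. They include E2f8, Bub1b, Melk and Ccnb1, which were tested because of their level at Day 3, and without these the median of the remaining 18 was 0.65, with 4 called. In absolute terms the order was the other way round, since the median difference, Day 3 minus Vehicle, was 0.240 CPM per kb for the members of higher level and 0.106 CPM per kb for those of lower level. Pcna had the largest such difference at 2.08 CPM per kb, then Mcm3 at 0.557, Mcm7 at 0.411, Mcm4 at 0.379, Top2a at 0.355, Mki67 at 0.346 and Uhrf1 at 0.333 CPM per kb. The members of higher level held 10 replication and 9 mitosis members, and those of lower level 4 and 17, so that class and level were not independent in the contrast of the class medians.

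**Figure D4:**
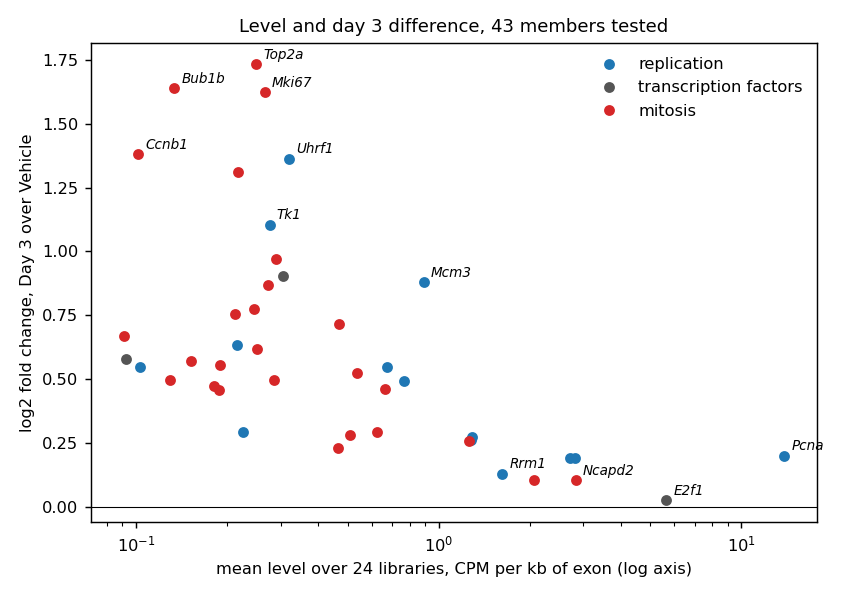
Log2 fold change at Day 3 over Vehicle (vertical axis) against the mean level over 24 libraries in CPM per kb of exon (horizontal log axis), a point for each of the 43 members tested, coloured by class. Members of low level such as Top2a, Mki67 and Bub1b lie highest, and those of high level such as Pcna, E2f1 and Ncapd2 lie near 0.

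Across libraries, the summed level of the 30 mitosis members was 77.5 to 89.2 CPM at Day 3, against 57.5 to 61.3 CPM in Vehicle, and that of the 14 replication members was 102 to 119 CPM at Day 3, against 90.5 to 96.0 CPM in Vehicle. Both sums separated Day 3 from Vehicle without overlap. Day 1 libraries lay at 56.5 to 68.1 CPM for mitosis and 91.2 to 99.0 CPM for replication, and Day 2 libraries at 58.6 to 72.0 CPM and 93.8 to 106 CPM. Each Day 3 library had 18 to 32 of the 47 members above all Vehicle libraries, with 18 in Day 3 replicate 5 and 32 in each of replicates 1 and 2. Day 2 libraries had 8 to 17 such members and Day 1 libraries 4 to 14, while single Vehicle libraries had 3 to 12 members above the other 5. The share over all genes is not given for these counts, so they only describe the libraries. Within each Day 3 library, the median log2 ratio to the Vehicle mean was larger for mitosis than for replication members, from 0.30 against 0.28 in replicate 5 to 0.65 against 0.37 in replicate 2. These ratios took in all 30 mitosis members, those below the filter included, and the mean of Vehicle libraries of both sexes. They are thus not the same measure as the fit in males alone, in which the order of the class medians was turned. Why the orders differ was not tested.

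The library titles carry number codes, taken here as animal numbers without a label that says so. What a shared start of these codes stands for is not known. In all, 4 groups of titles that share the first 2 digits held both Day 3 and Vehicle libraries. Within these groups Mki67 stood at 6.91 CPM at Day 3 against 1.42 CPM in Vehicle, at 4.93 against 1.63, at 4.17 against 1.92 and at 5.07 against 1.69 CPM. In all, 27 of 47 members (57.4%) were higher at Day 3 in 4 of 4 groups, Top2a, Mcm3, Uhrf1, Tk1, Bub1b and Pcna among them, against 8.5% of all genes tested. Of the 27, Cdk1, Aurkb and Bub1 were below the filter, and E2f8, Bub1b and Ccnb1 were tested because of their level at Day 3. The part of these genes in the count is no support. A further 15, Kif20a among them, were higher in 3 of 4 groups, Melk, Cdca8 and Hmmr in 2 of 4, and Aurka and Ncapg in 1 of 4. With these digits as a factor in the edgeR fit (the animal number factor), Mcm3, Mki67, Top2a and Uhrf1 were called at Day 3 over Vehicle, where 0.543% of all genes were called higher, and the calls of Tk1, Bub1b and Kif20a were lost. In that fit no member was called at Day 3 over Day 2 (0.0239% of all genes higher), and Mki67, Top2a and Uhrf1 were called at Day 3 over Day 1 (0.25%).

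**Figure D5:**
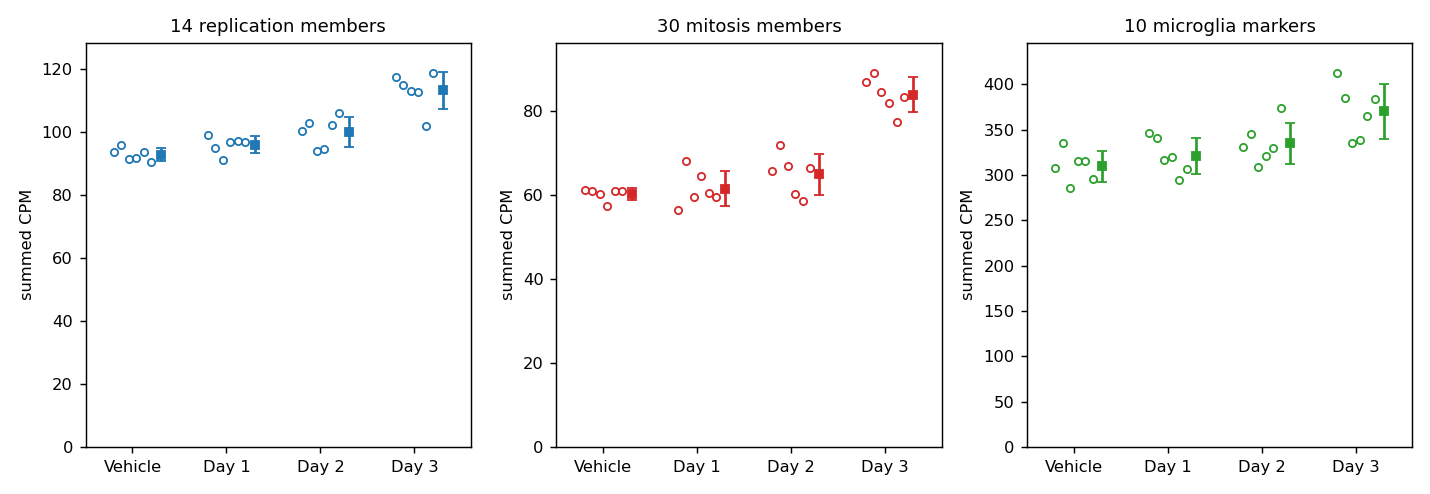
Summed CPM of the 14 replication members (blue), the 30 mitosis members (red) and 10 microglia markers (green) in each library of Vehicle, Day 1, Day 2 and Day 3, with group mean and SD as squares and bars, each axis starting at 0. The Day 3 sums of the mitosis members, 77.5 to 89.2 CPM, lie above all other libraries, whereas the Day 3 microglia sums overlap the other groups.

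The other genes of the cycle, 109 listed by role and 92 tested, gave 4 called higher at Day 3 over Vehicle, where 0.602% of all genes were. None of the list was called lower, and its median log2 fold change was 0.17. Those called were Pbk, a mitotic kinase, at 1.73 (edgeR adjusted p 0.0128), Asf1b, a histone chaperone of replication, at 1.70 (0.0128), Ect2, the exchange factor that starts cytokinesis, at 1.34 (0.0113), and Espl1, the separase that cuts cohesin, at 0.87 (0.0379). They comprised 1 of 33 other replication factors tested (median 0.21) and 3 of 38 other mitotic factors tested (median 0.18). At an unadjusted edgeR p under 0.05, 11 of these replication factors and 12 of these mitotic factors were higher and none was lower. Over all genes, 3.58% were higher at that threshold. It is not given here which of these factors passed the filter through their level at Day 3. None of the 8 cyclins and kinases of G1, of the 9 Cdk inhibitors and pocket proteins tested, or of the 4 other E2F and MYB factors tested was called, with median log2 fold changes of 0.11, -0.03 and 0.04. At an unadjusted edgeR p under 0.05, 2, 2 and 0 of these were higher and none was lower. Cyclin D1, Ccnd1, stood at 33.0 to 40.7 CPM at Day 3, against 28.3 to 41.5 CPM in Vehicle. In this list no gene was called at Day 1 or Day 2 over Vehicle. For Day 3 over Day 2, 1 was called (Ect2), where 0.119% of all genes were called higher. For Day 3 over Day 1, 3 were called (Iqgap3, Pbk and Chaf1b), where 0.602% of all genes were called higher.

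Markers of the cell types in the dissection were measured beside the cycle genes, and their part in the result was not tested. Of 10 microglia markers, those called higher at Day 3 included Olfml3, Fcrls and Cx3cr1, with log2 fold changes of 0.68, 0.70 and 0.26, and the median over the list was 0.16. Their summed level was 335 to 413 CPM at Day 3, against 286 to 336 CPM in Vehicle, with overlapping ranges. Of 10 markers of activated microglia 9 were tested and 5 were called higher, where 0.602% of all genes were. Clec7a stood at a log2 fold change of 3.01, Itgax at 1.96, Cd68 and Tyrobp at 0.70 and 0.69, and Trem2 at 0.48. The summed level of this list, 1578 to 2270 CPM at Day 3 against 1728 to 2312 CPM in Vehicle, consisted mostly of Apoe, which astrocytes also make. Itgax, an integrin subunit of activated microglia, stood at 1.18 to 1.68 CPM at Day 3, against 0.128 to 0.661 CPM in Vehicle. Of 7 astrocyte markers Gfap, the intermediate filament of reactive astrocytes, was called, at 350 to 470 CPM at Day 3, against 159 to 223 CPM in Vehicle (log2 fold change 1.12), with a list median of 0.03 and summed levels of 1462 to 1773 CPM at Day 3, against 1249 to 1532 CPM in Vehicle.

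Markers of oligodendrocyte precursors, progenitors and vessels were not called, and at an unadjusted edgeR p under 0.05 a single progenitor marker and a single pericyte marker were higher and none lower. Of 8 oligodendrocyte precursor markers none was called, the median log2 fold change being -0.01, and they summed to 344 to 389 CPM at Day 3, against 334 to 386 CPM in Vehicle. Pdgfra, the growth factor receptor of these cells, stood at 62.3 to 79.1 CPM at Day 3, against 61.1 to 77.8 CPM in Vehicle. Of 8 markers of neural progenitors and neuroblasts 7 were tested and none was called (median 0.06). Their summed level was 152 to 159 CPM at Day 3, against 138 to 151 CPM in Vehicle, and these ranges did not overlap. None of 5 endothelial markers (median 0.05; summed 173 to 211 CPM at Day 3, 154 to 216 CPM in Vehicle) and none of 5 pericyte and smooth muscle markers (0.06; 186 to 217 CPM at Day 3, 176 to 232 CPM in Vehicle) was called.

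Markers of neutrophils, lymphocytes, monocytes and border macrophages were low, and none of those tested reached an unadjusted edgeR p under 0.05 at Day 3 over Vehicle. The 7 neutrophil markers summed to 0.245 to 0.421 CPM at Day 3, against 0.109 to 0.314 CPM in Vehicle, none was tested, and Elane had no read in any library. The 8 lymphocyte markers, 2 of them tested and neither called, summed to 4.03 to 6.02 CPM at Day 3, against 3.20 to 6.46 CPM in Vehicle, and Cd3e, a chain of the T cell receptor complex, had 2 reads at Day 3 and 5 in Vehicle. The 8 markers of monocytes and border macrophages, 4 of them tested and none called, summed to 8.24 to 12.1 CPM at Day 3, against 5.97 to 14.2 CPM in Vehicle. Choroid plexus markers, none of 7 called, had a median log2 fold change of 1.11, the largest of the marker lists, and summed to 20.5 to 1181 CPM at Day 3, against 14.2 to 1261 CPM in Vehicle. Ttr-rich libraries were 3 of 6 at Day 3 and 1 of 6 in Vehicle. Without the 8 Ttr-rich libraries, 5 members were called at Day 3 over Vehicle (Mcm3, Mki67, Top2a, Tk1 and Uhrf1, with 0.275% of all genes higher), none at Day 3 over Day 2 (0.0234%) and 4 at Day 3 over Day 1 (Mcm3, Mki67, Top2a and Uhrf1, 0.199%). None of 5 red blood cell markers was called either (median 0.36; 94.2 to 167 CPM at Day 3, 65.4 to 157 CPM in Vehicle).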

How the data were processed

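The deposited table holds whole-number read counts per gene for 24 libraries, not normalized. Per the submitters' processing notes, fastp 0.23.1, STAR 2.7.9a, DESeq2 1.32.0 and mm39 were used. Counting program, annotation and strand setting were not given in the sources used here, so reads of overlapping, antisense or pseudogene copies (as for Pcna and Tyms) cannot be told apart. Groups came from the treatment labels. The labels do not state that each library is a separate animal; if not, p-values measure only the spread between these libraries.

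Genes were tested with edgeR 4.0.16 in R 4.3.3 (two-sided quasi-likelihood test, TMM factors, filterByExpr with minimum count 10 and minimum total 15, group and sex in 1 model over 24 libraries), after a check on simulated data. The filter kept 16767 genes (biological coefficient of variation 8.51%), over which p-values were Benjamini-Hochberg adjusted. CPM are counts per 1000000 of the library total, and log2 ratios per library used a pseudocount of 0.25 CPM. DESeq2 1.42.0 and limma 3.58.1 (voom) were alternatives. At these depths 1 CPM is 16.6 to 23.7 reads, which limits the precision for most members. The members and lists were chosen with earlier results of these data known. Values per library are given for members called in any comparison and for Mki67, Top2a, Pcna, Mcm2 to Mcm7 and Cdk1; of the others, the highest and lowest of each role are named with values, and any beyond this (such as Aurkb, E2f1, Foxm1 and Kif4 by library, or Itgax and Ccnd1) were chosen after their values were seen. The values of 1 marker gene are not reported here.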

Additional observations from a re-analysis of the deposited data

Results flagged for a closer look

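Within groups of 6, 3 library values stood apart from the rest of their group by more than Dixon's 95% value for the gap over the group's range, in 68 groups looked at; chance flags about 1 in 20 groups. Kif11 was highest in Day 2 replicate 3, at 2.39 CPM, with the next library at 1.49 and the lowest at 0.958 CPM. Kif20a was lowest in Day 3 replicate 3, at 0.782 CPM, with the next at 1.62 and the highest at 2.02 CPM. Mcm4 was lowest in Day 1 replicate 3, at 6.88 CPM, with the next at 9.73 and the highest at 11.1 CPM. Their causes were not tested.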

How the results depend on the processing

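No paired analysis was possible because the replicate numbers follow the order of deposit and the titles share no replicate number across groups; the animal number factor, by the first 2 digits of the titles, groups libraries but does not pair them. In the counts of calls that follow, percentages in brackets are the share of all genes called higher in the same fit. For Day 3 over Vehicle, the 7 members called (0.602%) became 12 without the filter (0.491%) and 4 with the animal number factor (0.543%). They became 3 in females only (0.2%) and 0 in males only (0.0584%). When a library was left out, they ranged from 4, without Day 3 replicate 1 (0.414%) or Vehicle replicate 3 (0.455%), to 9. The 9 came without Day 3 replicate 5 (0.597%) or Vehicle replicate 2 (0.638%). By DESeq2 10 were called (0.728%), by voom 6 (0.543%) and without the Ttr-rich libraries 5 (0.275%). The members added by DESeq2 were Pcna, Ccna2 and Foxm1. Those added without the filter were Ube2c, Ccna2, Mcm2, Foxm1, Cdk1 and Aurkb, while Kif20a was lost there. Mki67, Top2a and Mcm3 kept this call in 24 of 24 fits that left out a library and in 11 of 12 other alternatives, all but males only. Tk1 lost it without Day 3 replicate 1 or Vehicle replicate 1, 3 or 4. For Day 3 over Day 2, the 1 member called (0.119%) became 4 without the filter (0.166%). The count was 2 by DESeq2 (0.203%), by voom (0.137%) and with only both groups in the fit (0.106%). It was 0 with the animal number factor (0.0239%), without the Ttr-rich libraries (0.0234%), in females alone (0%) and in males alone (0.0117%). Leaving out a library gave 0 to 2. The count was 0 without Day 3 replicate 1 (0.0532%). It was 2 without Day 1 replicate 3 (0.13%), Day 2 replicate 2 (0.112%) or Vehicle replicate 3 or 6 (0.142% each). For Day 3 over Day 1, the 7 (0.602%) became 3 with the animal number factor (0.25%) and 4 without the Ttr-rich libraries (0.199%). They became 2 in females (0.0531%) and 2 in males alone (0.0642%). When a library was left out, they ranged from 4 to 8. The 4 came without Day 1 replicate 5 (0.325%) or 6 (0.372%) or Day 3 replicate 1 (0.284%) or 6 (0.237%). The 8 came without Day 3 replicate 5 (0.509%). For Day 2 over Day 1, 0 (0.0119%) became 1 without the filter (Top2a, 0.114%). At Day 1 and Day 2 over Vehicle, and for the sex interaction, the count was 0 in every alternative run; the interaction was not run without a sex term or in a single sex. The replication median of 0.39 became 0.29 with a filter of 1 CPM and 0.49 in males, and 0.36 to 0.45 when a library was left out. The mitosis median of 0.56 became 0.74 in females and 0.43 in males, and 0.51 to 0.61 when a library was left out. The order of both medians was therefore turned in males (0.43 for mitosis and 0.49 for replication). Without the filter the medians were 0.39 and 0.59. The Day 2 medians of 0.17 and 0.17 became 0.21 for replication and 0.04 for mitosis with the animal number factor. The 8 members whose Day 3 libraries all lay above Vehicle became 16 without the Ttr-rich libraries, 26 in females and 20 in males. Fewer libraries are compared in these sets, which makes such a separation easier for any gene. The share over all genes is not given for them, so the larger counts are no result about the members. The 8 became 6 under each of 3 other scalings, tried after seeing the data, and 8 to 12 when a library was left out. For Day 3 over Day 2, the log2 fold change of Mcm4 (0.01) became -0.0768 without the Ttr-rich libraries, -0.00816 in females and -0.0161 to 0.0364 when a library was left out, that of Mcm5 became -0.0101 with the animal number factor, and that of Mcm6 became -0.0677 without the Ttr-rich libraries; none was called. The causes were not tested beyond the smaller number of libraries or genes. A level under 1 CPM rests on fewer than 23.7 reads a library, which limits what Cdk1, Aurkb, Ccnb1 and Bub1b can show.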
